A study of Mus musculus with 40 samples.

Results

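Conventional CD4+ T cells (Tconvs) were compared before and after activation by RNA-seq, with 3 libraries of resting cells and 3 of activated cells. These 6 libraries were taken by their labels from the 24 RNA-seq samples of the series, which holds 40 samples in all. The methods of the study describe sorting of Tconvs from the spleen of adult Foxp3-GFP mice, which carry a green fluorescent reporter of the Treg transcription factor Foxp3, after enrichment of CD4+ cells. The mice were 2 to 4 months old. The same reporter was carried by the mice behind both groups, and no other allele or drug was named for these libraries. The study describes these profiles as taken with or without stimulation of the T cell receptor. The reagents and the duration of the activation, and the surface gate of the Tconvs, are not given for these libraries in the sources used here. Antibodies to CD3 and CD28 were the stimulus in many of the study's other T cell experiments. Nothing in the labels says that the 3 libraries of a group came from separate mice or cultures. The p-values below thus measure the spread between libraries of a group, pooled over the 15 libraries of the fit, and that spread may be technical.

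A naive or memory Tconv in the spleen circulates in a small, quiescent state that is held by transcription factors such as Klf2, Tcf7 and Foxo1 and by IL-7. When the T cell receptor (TCR) and CD28 are engaged, kinases and calcium carry the signal to NFAT, AP-1 and NF-kB, which switch on cytokines and their receptors. Over hours to days the cell then grows, rebuilds its metabolism and enters the cell cycle, and it leaves behind the receptors that kept it recirculating.

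Levels are given as normalized counts, that is, gene counts that the authors divided by a size factor for each library so that libraries of unequal depth can be compared. Such a scale compares the make-up of libraries and does not show a change in total RNA per cell, and in these bulk samples fewer cells of a type cannot be told apart from less RNA per cell. The 6 libraries held from 10126877 to 15685234 reads on genes, and from 12706 to 12890 of the 21950 genes were above 0. A floor of 3 reads, taken as the lowest number distinguishable from none, was worth 2.12 to 3.09 normalized counts, and it covers counting error only. Log2 fold changes are activated minus resting, with 1 added to each normalized count before the logarithm, which understates the change of low genes, and each is followed by its standard error, whereas a level is followed by the SD of 3 libraries. A gene rose or fell where limma, fitted over 15 libraries of Tconvs, tTregs and resting iTregs, gave a Benjamini-Hochberg adjusted p below 0.05 over all 11495 genes tested together with an absolute log2 fold change above 0.5. Among the genes named below as having risen or fallen, the highest adjusted p was 0.0311.

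Markers of T cells were present in all 6 libraries, as was the helper cell co-receptor Cd4, whose levels and fall are given below. Cd3e, the epsilon chain of CD3, stood at 3489.6, 3463 and 3373 normalized counts in resting and 2611, 2914 and 2648 in activated libraries, and Cd28, the costimulatory receptor, at 9610.1, 8810.1 and 9501 and 11275, 9746 and 11306. The 14 listed B cell genes included 5 at 0 in every library, among them Ms4a1, the remaining ones apart from Cd74 summed to 77.8 to 88.4 normalized counts at rest and 74.5 to 92.7 after activation, and Cd74, the invariant chain, rose from 8.22 ± 0.919 to 355 ± 21.3. Of the 8 B cell genes tested, 3 rose, Cd74 among them, and 1 fell. Myeloid and dendritic cell genes summed to 959 to 1025 in resting and 862 to 919 in activated libraries, with Clec9a at 0 and Lyz2 at or below 6.57 throughout. Of the CD8 co-receptor, Cd8a did not exceed 4.31 normalized counts, and Cd8b1 stood at 229 ± 7.78 and then 112 ± 6.37. Genes of erythroid cells and platelets summed to 20.2 to 38.1 at rest and 8.98 to 14.7 after activation, and those of NK and innate-like cells to 96.6 to 131 at rest and 336 to 353 after activation. Of the 4 tested genes of that list Eomes, which helper cells also induce, rose, as given below, whereas 2 fell, among them Klrb1c, from 22.7 ± 7.32 to 1.28 ± 1.13. Foxp3 was low in both groups, at 11.3, 10.3 and 9.65 and 35.9, 34.5 and 31.1, although it rose by 1.61 on the log2 scale. Of 12 genes listed as Treg markers, 9 rose, Foxp3 among them, and 3 fell. The rises included genes that activation of Tconvs also induces, such as Il2ra and Ctla4. Whether a change in cell composition of the sorted population took part in the results below was not tested.

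Activation moved 5774 genes, 50.2% of those tested, and in nearly equal numbers each way. Risers made up 24.5% and fallers 25.7% of all genes tested, and these shares are the background for each gene group below. The groups and their members were chosen with earlier results of these data known, so that their counts are descriptions and not tests. The large changes were mostly rises, since 251 genes rose and 123 fell by more than 3 on the log2 scale, and 41 rose and 10 fell by more than 5. In 73.9% of all genes tested, the 3 activated libraries lay wholly above or below the 3 resting ones. The same held for all 275 named genes that were called, so that it sets none of them apart from the others. Genes that rose were also shorter than those that fell, with a median of 3683 against 5524 exonic bases and a median span of 18.6 against 33.4 kb, where all genes tested had 4478 bases and 23.5 kb, and any part of transcript length in the calls was not tested. The 10 largest rises among genes reaching 100 normalized counts included Lad1, an anchoring protein of epithelia, the stress factor Atf3, Irf4 and Irf8, the IL-2 receptor alpha chain Il2ra, the anticoagulant protein Pros1 and Dtl, a ubiquitin ligase adaptor of S phase. The 10 largest falls included Patl2, the cadherin family member Clstn3, the cytochrome P450 Cyp2s1, the MHC class II peptide-loading modulator H2-Ob, the sialyltransferase St8sia6 and the IL-7 receptor Il7r.

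**Figure D1:**
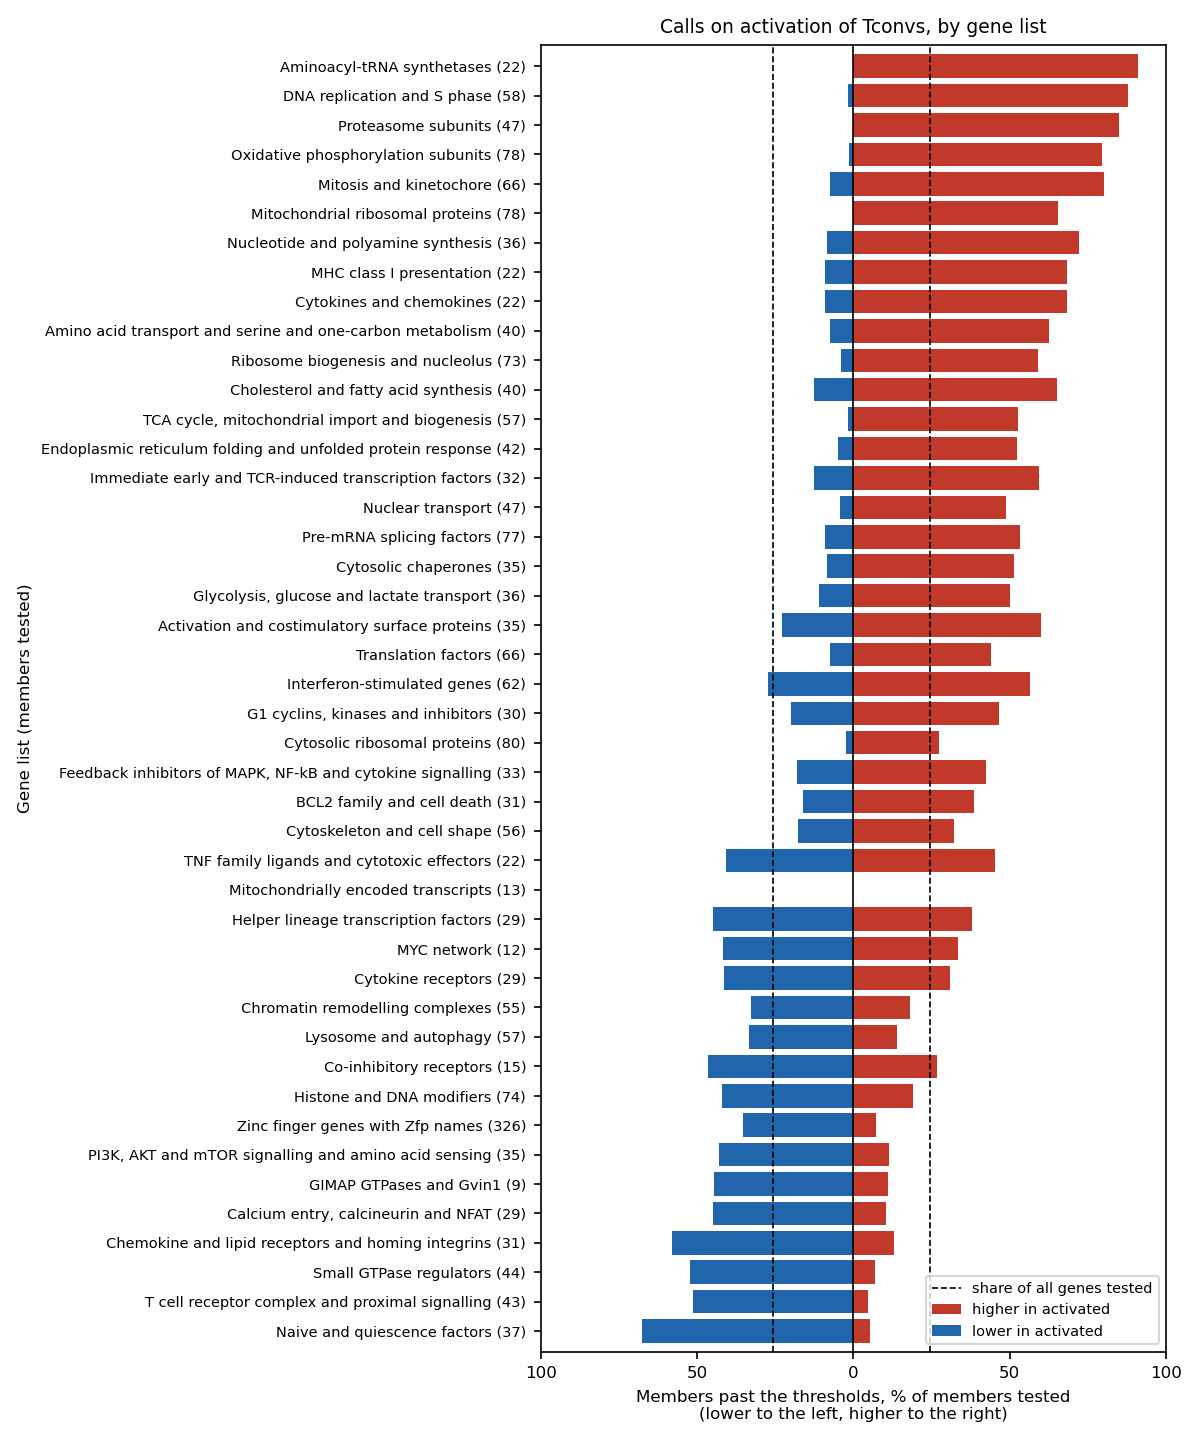
Share of the tested members of each gene list that rose (right, red) or fell (left, blue) on activation of Tconvs, in percent of the members tested, with the number tested in brackets. Dashed lines mark the shares of all genes tested, 24.5% higher and 25.7% lower, and the lists run from tRNA synthetases, of which 20 of 22 rose, to naive and quiescence factors, of which 25 of 37 fell.

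The receptor machinery that starts the response was lower in activated than in resting Tconvs. Of 43 members of the TCR complex and its proximal pathway, 22 fell and 2 rose, with a median log2 fold change of -0.56 against -0.04 over all genes tested, and the list took 1.47% of a resting and 1.03% of an activated library. Lck, the kinase that phosphorylates the CD3 chains, stood at 13377, 13829 and 14300.5 normalized counts in resting libraries and at 8789.6, 8683 and 9525 in activated ones, a log2 fold change of -0.62 ± 0.10. The co-receptor Cd4 stood at 8729, 8818 and 8749.9 and then at 4311, 4028 and 4619, a change of -1.02 ± 0.11. Both genes were lower in each activated library than in any resting one. The largest falls of the list were those of Tespa1, a linker needed for TCR signalling in thymocytes, with -3.37 ± 0.18, Themis, another adaptor of thymic selection, which fell by 2.00, the phosphatase Ubash3b, with -1.71 ± 0.12, and the adaptor Skap1, which links the TCR to integrins, with -1.57 ± 0.09. Core components did not all follow, as Cd3e had -0.34 ± 0.08, Cd247, the zeta chain, -0.21 ± 0.10, the kinase Zap70 -0.20 ± 0.14 and the adaptor Lat -0.19 ± 0.07, none of them past the thresholds. The members that rose were Cblb, a ubiquitin ligase that restrains TCR signalling, with 0.90 ± 0.09, and Csk, the kinase that inhibits Lck, with 0.62 ± 0.08.

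Genes of calcium entry and of calcineurin and NFAT also fell on balance, with 13 of 29 lower, 3 higher and a median of -0.43. Orai2, a subunit of the calcium channel of the plasma membrane, stood at 3077, 3241 and 3169 normalized counts at rest and at 672, 677 and 662 after activation, and Stim1, the calcium sensor of the endoplasmic reticulum, at 2255, 2281 and 2251 and 678, 793 and 703. The groups did not overlap for either gene. Ppp3ca, a catalytic subunit of calcineurin, fell by 2.11 on the log2 scale, and of the NFAT factors Nfatc3 fell by 1.28 and Nfatc1 fell by 0.67, whereas Nfatc2 had -0.19 ± 0.10. Orai1 had 0.34 ± 0.18, and the rises were those of the calcium pumps Atp2b4, with 0.85 ± 0.20, and Atp2a2, with 0.73 ± 0.13, and of the potassium channel Kcna3, with 0.54 ± 0.20, whose call was lost when any library except resting replicate 1 was left out, at 0.50 to 0.56, and with quantile or equal-total scaling. In the same way 23 of 44 regulators of small GTPases fell, among them the Cdc42 exchange factor Dock9, with -2.01 ± 0.28, and Rasgrp2, which activates Rap1, with -1.69 ± 0.21, and only Rasal1, Elmo2 and Vav3 of that list rose. Of 35 members of the PI3K and mTOR pathway, 15 fell and 4 rose. The largest fall there was that of Pik3ip1, a membrane inhibitor of PI3K, from 5389 ± 288 to 643 ± 46.1 normalized counts, followed by the mTORC1 inhibitor Sesn1, with -2.40 ± 0.10, the mTORC2 subunit Rictor, with -1.55 ± 0.10, and the PI3K regulatory subunit Pik3r1, with -1.54 ± 0.10.

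Transcription factors that the TCR induces mostly rose, whereas the classical immediate early genes moved both ways. In this list 19 of 32 members rose, 4 fell, and the median was 1.07. Irf4, which translates the strength of the TCR signal into effector programs, stood at 28.8, 33.8 and 37.7 normalized counts in resting and at 4186, 4235 and 4507 in activated libraries. Atf3 was at 0 in all 3 resting libraries and stood at 220.0, 185 and 225 in activated ones, which was at least 73.9-fold higher than the floor of 3 reads. Irf8, better known from myeloid and B cells, stood at 12.3, 15.0 and 21.1 and then at 2088, 2465 and 1721. None of these 3 genes had overlapping groups. The orphan nuclear receptors Nr4a2, Nr4a3 and Nr4a1, which respond to TCR signals, had log2 fold changes of 4.38 ± 0.41, 3.78 ± 0.30 and 2.50 ± 0.14, yet all stayed at low levels, with Nr4a1 at 65.5 ± 5.80 normalized counts after activation. Egr2 rose by 3.50 ± 0.34, and of the AP-1 subunits Jun rose by 2.67 ± 0.44 and Jund by 1.40 ± 0.34, whereas Egr1 fell by 0.83, from 49.1 ± 6.97 to 28.0 ± 9.42, and Fos stood at 7.44 ± 3.13 and 10.7 ± 4.93. Fosl2 and Crem fell as well, with -1.12 ± 0.14 and -0.62 ± 0.18. The call of Egr1 was lost without activated replicate 2 or 3 or resting replicate 1 or 2, at -0.77, -0.63, -0.75 and -0.79. Of the NF-kB subunits, Nfkb2 rose by 2.37 ± 0.17, Relb by 1.41 ± 0.34 and Nfkb1 by 1.10 ± 0.10.

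Feedback inhibitors split, with 14 of 33 higher and 6 lower. The inhibitors that cytokine receptors induce through STAT factors led the rises. Cish, a STAT5 target that dampens IL-2 and TCR signalling, stood at 139.9, 172 and 156 normalized counts at rest and at 6736, 6813 and 6985 after activation, and Socs2, Socs1 and Socs3 had 3.19 ± 0.16, 2.80 ± 0.25 and 1.68 ± 0.45. Rgs1, a brake on chemokine receptors, rose by 4.54 ± 0.09, whereas its relative Rgs2 fell by 2.54. The other members that fell included Peli1, a ubiquitin ligase that restrains T cell activation, with -1.47 ± 0.10, and the MAPK phosphatase Dusp1, with -0.92 ± 0.27.

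Lineage factors of helper cells moved both ways, with 11 of 29 higher and 13 lower. Tbx21 and Eomes, linked to the Th1 program, were among the rises, but not every factor of that program rose. Tbx21, which encodes T-bet, stood at 22.6, 23.4 and 15.8 normalized counts in resting and 159.8, 236 and 120.3 in activated libraries, and Eomes, its relative, at 9.26, 8.44 and 14.0 and 295, 306 and 277. Both genes were higher in every activated library than in any resting one. Stat5a, which carries IL-2 signals, rose by 2.18 ± 0.09, while its paralog Stat5b fell by 0.71. Gata3, the Th2 factor, rose by 0.99 ± 0.12. Bcl6, the factor of follicular helper cells, fell by 3.16, from 131 ± 15.6 to 14.1 ± 3.78 normalized counts, and the other members that fell included Rora, with -2.31 ± 0.12, Runx1, with -1.75 ± 0.31, and Prdm1, which opposes Bcl6, with -1.41 ± 0.17. The majority in this list turned when resting replicate 3 was left out, with 11 members higher and 10 lower.

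The genes that hold a T cell in its resting state fell. Of 37 naive and quiescence factors, 25 fell and 2 rose, with a median of -1.09, and the list took 1.35% of a resting and 0.627% of an activated library. Klf2, which maintains quiescence and the receptors of recirculation, stood at 899, 800.1 and 755 normalized counts at rest and at 206, 203 and 182 after activation. Tcf7, which encodes TCF-1, stood at 15701, 16434 and 16500.0 and 3363, 3382 and 3565, and its partner Lef1 at 9057, 9504 and 9342 and 4061, 4216 and 4327. For all 3 genes the activated libraries lay below the resting ones. Tob1 and Btg2, antiproliferative proteins of a shared family, fell, with log2 fold changes of -3.80 ± 0.17 and -2.50 ± 0.11, and so did Klf3, with -2.65 ± 0.10, Txnip, which limits glucose uptake, with -2.41 ± 0.15, and Cdkn1b, the cell cycle inhibitor p27, with -2.06 ± 0.09. Foxo1, with -0.04 ± 0.11, Satb1, with -0.12 ± 0.13, and Bach2, with -0.19 ± 0.09, did not pass the thresholds. The exceptions were Igfbp4, a binding protein of insulin-like growth factors that is often found in naive CD4+ cells, which rose from 271 ± 25.0 to 6454 ± 475, and Ddit4, an mTORC1 inhibitor, with 2.28 ± 0.38. In RefSeq promoters, taken as the 250 bases before and 50 bases after a transcription start, the FOXO motif GTAAACA was counted on either strand. It was found for 5 of the 35 genes of the list that were matched, all 5 among the 23 that had fallen. Over the 9121 tested genes matched its share was 3.26%, with 4.17% of those that had fallen and 2.55% of those that had risen. Such a match describes the letters in the window and not a bound site.

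Receptors of homing fell as well, with 18 of 31 lower, 4 higher and a median of -1.07. S1pr1, the receptor with which T cells leave lymphoid organs, stood at 10066, 10105 and 10316 normalized counts at rest and at 1171, 1331 and 1226 after activation, and Gpr183, which guides cells by oxysterols, at 4357, 4246 and 4685 and 410.3, 322 and 396. Neither gene had overlapping groups. Further falls were those of Itga4, the alpha 4 integrin chain, with -2.90 ± 0.11, Ccr9, a gut-homing receptor, with -2.80 ± 0.41, and Cxcr3, the receptor of interferon-induced chemokines, with -1.62 ± 0.12. Not every receptor of recirculation followed. Ccr7, which guides cells into lymph nodes, stood at 18351, 18969 and 18865 in resting and 39850.0, 37680.1 and 41895 in activated libraries, a rise of 1.09 ± 0.11. Ccr8 and Ccr4, receptors of activated and skin-homing cells, rose by 3.92 ± 0.26 and 1.97 ± 0.12, and the integrin chain Itgb2 by 0.72 ± 0.09.

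**Figure D2:**
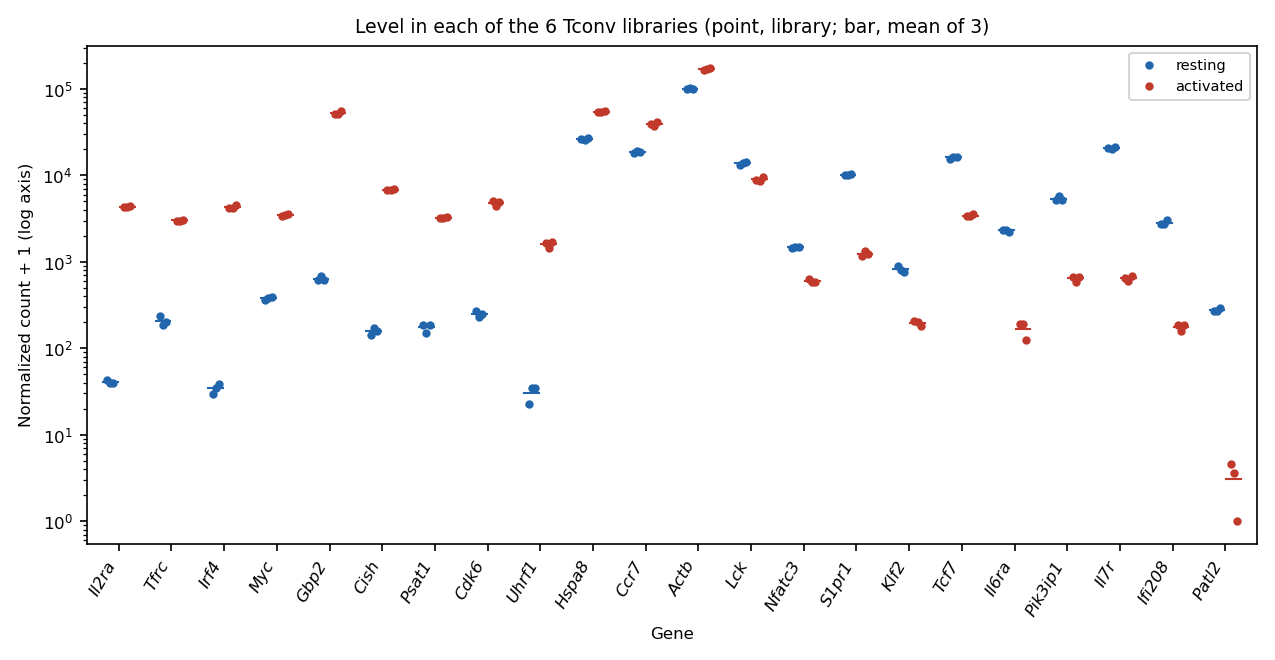
Normalized count plus 1 (log axis) of 22 genes in each of the 6 Tconv libraries, where blue points are resting and red points activated libraries and a bar is the mean of 3. Il2ra, Irf4 and Gbp2 rise and Il7r, Pik3ip1 and Patl2 fall with wide gaps between the groups, and the libraries of a group lie close together.

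Surface proteins of activation rose. In this list 21 of 35 members were higher and 8 lower, and the median was 0.94. The list also held Lad1, the anchoring protein of epithelia, which rose by 9.04. Il2ra, which gives the IL-2 receptor its high affinity, stood at 42.2, 38.5 and 38.6 normalized counts in resting libraries and at 4315, 4290.0 and 4447 in activated ones, a mean 109-fold rise. Cd69, an early marker that retains cells in lymphoid tissue, stood at 230.4, 231 and 273 and 2279, 2125 and 2356, and Tfrc, the transferrin receptor, at 233, 185 and 200.1 and 2939, 3009 and 3086. The groups were apart for all 3. Costimulatory members of the TNF receptor family were among the largest rises, with 4.72 ± 0.18 for Tnfrsf9, which encodes 4-1BB, 4.20 ± 0.13 for Tnfrsf4, which encodes OX40, and 2.14 ± 0.13 for Tnfrsf18, which encodes GITR. Icos rose by 1.80 ± 0.11 and Cd44 by 0.89 ± 0.16. The members that fell were led by Cd40lg, the ligand with which helper cells engage B cells, from 1044 ± 43.8 to 115 ± 7.05, and Nt5e, which encodes the ectonucleotidase CD73, from 831 ± 31.9 to 142 ± 15.3, and they also included Cd27, with -0.83 ± 0.12. Co-inhibitory receptors fell more often than they rose, with 4 of 15 higher and 7 lower and a median of -0.52. Lag3 rose by 4.98 ± 0.40, Havcr2, which encodes TIM-3, by 3.47 ± 0.26, and Ctla4 by 1.66 ± 0.16, whereas Pdcd1, which encodes PD-1, had -1.67 ± 0.19, Vsir, which encodes VISTA, -2.18 ± 0.08, and Cd101 -3.04 ± 0.15.

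Cytokine receptors moved both ways, with 9 of 29 higher and 12 lower, so that the median was -0.07. Receptor chains for IL-7, IL-6 and interferon gamma fell. Il7r, which transmits the survival signal of resting cells, stood at 20644, 20013 and 21395 normalized counts at rest and at 658, 604 and 686 after activation, Il6ra at 2362, 2365 and 2214 and 189, 191 and 123, and Ifngr1, the ligand-binding chain for interferon gamma, at 8734, 8790.4 and 9209.8 and 1203, 1263 and 1294. The activated libraries lay far below the resting ones in each case. Ifngr2, the other chain of the interferon gamma receptor, had 0.08 and did not pass. Il18r1 had -2.65 ± 0.17 and Tgfbr2, the type II receptor of TGF-beta, -1.72 ± 0.09. The receptors of IL-12 and IL-2 rose. Il12rb1 stood at 38.1, 36.6 and 36.9 and 1884, 1726 and 1886, and Il12rb2, its signalling partner, at 19.5, 18.8 and 22.8 and 1047, 1028 and 1035. Il2rb, shared by the receptors of IL-2 and IL-15, rose by 2.99 ± 0.09, Il15ra by 3.01 ± 0.23 and Il4ra by 2.16 ± 0.06, whereas the common gamma chain Il2rg had 0.42 ± 0.17 and did not pass.

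Cytokine genes mostly rose, while their summed share of a library stood at 0.204 ± 0.0187% at rest and 0.199 ± 0.0170% after activation. Of 22 tested, 15 rose and 2 fell, and the median was 2.11. Lta, which encodes lymphotoxin alpha, stood at 99.8, 109.7 and 114 normalized counts in resting and 1518, 1786 and 1631 in activated libraries, and Tnf at 37.0, 25.3 and 43.0 and 576, 499 and 521. Lif stood at 0, 1.88 and 0 and 95.2, 91.4 and 107, and Ifng, the effector cytokine of Th1 cells, only at 1.03, 5.63 and 7.90 and 37.7, 28.5 and 26.2. In all 4 genes the activated libraries were the higher ones, although the call of Ifng was lost with a pseudocount of 0.1, where its log2 fold change was 3.03. Il2, the growth factor that activated T cells make early, was too low to be tested, at 7.20, 3.75 and 5.27 normalized counts at rest and 2.69, 3.45 and 3.54 after activation, and Il21 reached only 30.9 ± 1.16. The members that fell were Ccl5, with -2.35 ± 0.22, and Il16, which fell by 1.00. Of the TNF family ligands and cytotoxic effectors, 10 of 22 rose and 9 fell. Gzmb, the protease granzyme B, stood at 13.4, 24.4 and 27.2 and 1127, 1001 and 1199, and its inhibitor Serpinb9 rose by 2.44 ± 0.13, while perforin, Prf1, had -2.31 ± 0.19, Gzmk -3.02 ± 0.32 and the NK receptor Klrd1 -4.49 ± 0.24. Genes listed as markers of memory T cells, which overlap with several of these lists, fell in 13 of 18 cases, among them Ccr2, with -1.93 ± 0.29, and S100a4, with -2.40 ± 0.17, and rose in 4.

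Interferon-stimulated genes moved in both directions, between families and, as for the Ifit genes, within them. In the list 35 of 62 members rose and 17 fell, with a median of 1.07, and its share of a library went from 0.548 ± 0.0102% to 1.96 ± 0.0982% (SD, n = 3). The rises were led by the GTPases that interferon gamma induces against intracellular microbes. Gbp2 stood at 618, 680.0 and 621 normalized counts in resting and at 51598, 50946 and 55652 in activated libraries, Irgm1 at 256, 247 and 268 and 6103, 5226 and 6655, and Iigp1 at 364, 332 and 359 and 9788, 8412 and 9979.8. Each was higher in every activated library, by 6.36 ± 0.12, 4.53 ± 0.14 and 4.73 ± 0.15 on the log2 scale. Gbp5 rose by 5.89 ± 0.14, Irf1, a transcription factor of the interferon gamma response, by 2.02 ± 0.10, and the general interferon response genes Ifit1, Usp18 and Isg15 by 2.73 ± 0.21, 1.98 ± 0.18 and 1.18 ± 0.34. The falls were led by the Ifi200 family of nucleic acid sensors on chromosome 1. Ifi208 stood at 2756, 2725 and 3019 at rest and at 187, 157 and 183 after activation, Ifi213 at 1539, 1501 and 1625 and 51.2, 45.7 and 49.5, and Ifi206 at 1609, 1549 and 1697 and 154, 156 and 190.3. Ifi209 and Ifi203 had -2.05 ± 0.22 and -1.95 ± 0.13, Oasl1, which belongs to the oligoadenylate synthetase family, -2.48 ± 0.42, and Ifit1bl1, Ifit2 and Rsad2 -2.23 ± 0.17, -1.44 ± 0.22 and -1.69 ± 0.34. The Gbp and Ifi200 genes are families of close copies, so that the assignment of reads among the members of a family is uncertain, and Gbp10, among the largest rises, shares 46.3% of its exonic bases with other genes.

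Both directions were found among genes whose promoters hold the same motif. The interferon response letters GAAANNGAA, on either strand, stood in RefSeq promoters (GRCm38.p6) of 17 of 23 list members that rose and were matched (73.9%), of 11 of 17 that fell (64.7%), and of 800 of the 9121 tested genes matched (8.77%). Stretches of 90 bases before the start are shown for 4 genes that rose, in which capitals mark the match or overlapping matches.
Gbp2 (chr3:142620573-142620662, + strand): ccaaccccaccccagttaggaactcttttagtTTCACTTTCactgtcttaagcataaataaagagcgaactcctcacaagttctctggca
Irgm1 (chr11:48871421-48871510, - strand): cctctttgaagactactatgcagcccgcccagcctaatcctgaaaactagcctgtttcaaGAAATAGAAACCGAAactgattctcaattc
Ifit1 (chr19:34640759-34640848, + strand): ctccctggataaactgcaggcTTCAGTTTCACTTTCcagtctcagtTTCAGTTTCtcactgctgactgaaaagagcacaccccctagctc
Isg15 (chr4:156200859-156200948, - strand): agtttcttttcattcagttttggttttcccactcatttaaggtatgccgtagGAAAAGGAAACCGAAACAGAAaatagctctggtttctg
The same is shown for 4 genes that fell, in the same capitals.
Ifi208 (chr1:173673575-173673664, + strand): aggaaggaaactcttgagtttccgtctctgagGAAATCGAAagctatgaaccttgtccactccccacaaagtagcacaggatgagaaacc
Ifi213 (chr1:173599273-173599362, - strand): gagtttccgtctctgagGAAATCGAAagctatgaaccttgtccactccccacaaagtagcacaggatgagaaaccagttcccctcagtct
Ifi206 (chr1:173491319-173491408, - strand): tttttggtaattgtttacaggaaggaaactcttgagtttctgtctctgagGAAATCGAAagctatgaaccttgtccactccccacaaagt
Ifit1bl1 (chr19:34602009-34602098, - strand): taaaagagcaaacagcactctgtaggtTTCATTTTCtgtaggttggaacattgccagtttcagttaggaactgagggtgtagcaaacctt
The stretches of Ifi208 and Ifi213 share an identical run of 75 bases, and that of Ifi206 shares 49 with either. The letters were thus found on both sides of the list.

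MHC class I presentation rose with the interferon-induced GTPases. Of 22 members, 15 rose and 2 fell, with a median of 1.28. The immunoproteasome subunits Psmb9 and Psmb8 rose by 2.12 ± 0.10 and 1.80 ± 0.09, the proteasome activator Psme1 by 2.03 ± 0.07, the loading chaperone Tapbp by 1.89 ± 0.11 and the peptide transporter Tap1 by 1.51 ± 0.12. The classical heavy chains did not follow, as H2-K1 had -0.15 ± 0.15 and H2-D1 -0.15 ± 0.14, and the light chain B2m had 0.11 ± 0.12. The non-classical chain H2-T23 rose by 1.84 ± 0.15, whereas H2-Q6 fell by 0.91.

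**Figure D3:**
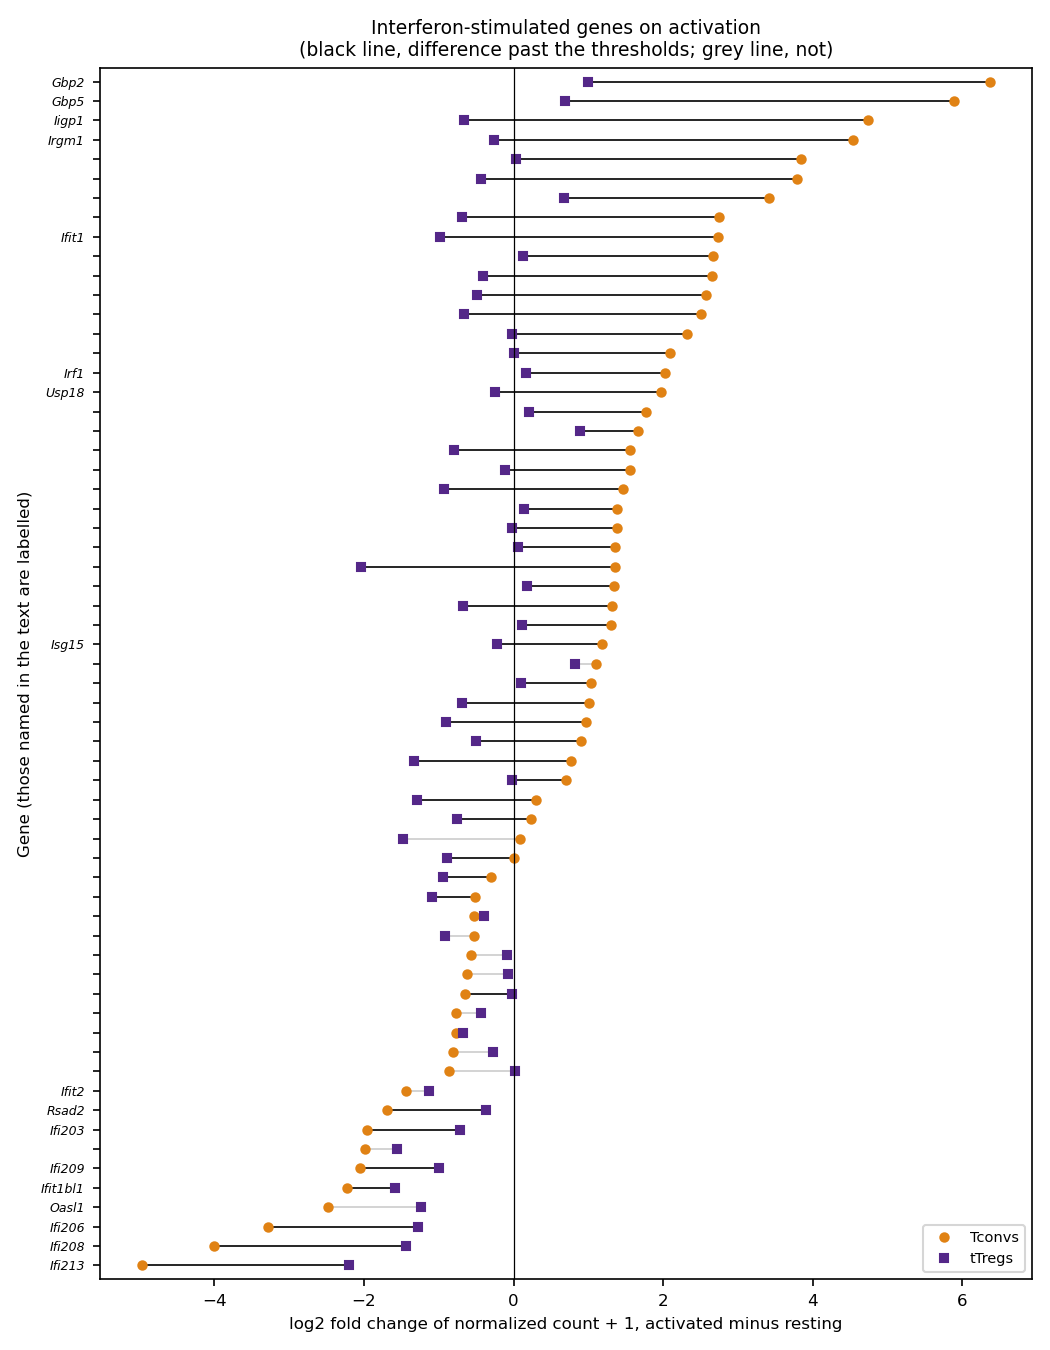
Log2 fold change of normalized count plus 1 on activation of each of the 62 tested interferon-stimulated genes, in Tconvs (orange circles) and tTregs (purple squares), joined by a black line where the difference passed the thresholds, with the genes named in the text labelled. In Tconvs 35 genes lie past the thresholds to the right and 17 to the left, with Gbp2 at the top and Ifi213 at the bottom, whereas the tTreg points lie closer to 0.

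Many genes of growth rose, among them Myc, the factor that drives ribosome and nutrient programs, which stood at 363, 384 and 393 normalized counts in resting and 3384, 3491 and 3539 in activated libraries. The MYC network as a list moved both ways, with 4 of 12 members higher, Myc among them, 5 lower and a median of -0.14. Max, the partner of Myc, rose by 1.19 ± 0.10 and Mxd1, a repressor at the same sites, by 3.01 ± 0.29, while the related repressors Mxi1, Mxd4 and Mga had -1.68 ± 0.14, -1.09 ± 0.13 and -1.01 ± 0.13. Ribosome biogenesis rose in 43 of 73 members and fell in 3, with a median of 0.60. Pop1, a subunit of RNase P and MRP, had 2.57 ± 0.16, Rrp1b 2.00 ± 0.09 and the ribosomal RNA modification protein Nop58 1.43 ± 0.08, while Wdr12, a factor of the large subunit, had -1.47 ± 0.12 and Polr1a, the largest subunit of RNA polymerase I, -0.77 ± 0.11. The ribosomal proteins themselves moved little. Of 80 cytosolic ones, 22 rose and 2 fell, which is close to the 24.5% of all genes for the rises, with a median of 0.20, and Rps12 rose most, by 1.70 ± 0.09, while Rps27 fell by 1.14 and its paralog Rps27l rose by 1.48 ± 0.12. Ribosomal protein genes have many processed pseudogenes, so that their read counts are uncertain. Translation factors rose in 29 of 66 cases, led by Eif4ebp1, an mTORC1-controlled repressor, with 2.32 ± 0.12, and Eif5a, with 2.18 ± 0.16, while Eif4ebp2 fell by 1.19.

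Nearly every tRNA synthetase rose, with 20 of 22 higher and a median of 0.80, and 0 fell by limma, edgeR or DESeq2 or at an unadjusted p below 0.05 in limma. Wars, which charges the tryptophan tRNA and also responds to interferon gamma, had the largest rise, from 663 ± 33.1 to 3801 ± 100.4 normalized counts, followed by Vars, with 1.94 ± 0.11, and Kars, with 1.47 ± 0.10, and the members that did not pass, Sars and Cars, had 0.45 ± 0.09 and 0.41 ± 0.13. Enzymes of amino acid and one-carbon metabolism rose in 25 of 40 cases and fell in 3, with a median of 1.00. Psat1, an enzyme of serine synthesis, stood at 187, 148 and 186 normalized counts in resting and 3179, 3226 and 3304 in activated libraries, and Asns, asparagine synthetase, at 46.3, 43.1 and 27.2 and 498, 505 and 472. Bcat1, the cytosolic branched-chain aminotransferase, stood at 5.14, 6.57 and 1.76 and 360.1, 338 and 367. No library of either group reached into the other group for these 3 genes. Chac1, which degrades glutathione, rose by 5.15 ± 0.25, Pycr1, of proline synthesis, by 3.88 ± 0.19, Phgdh by 2.37 ± 0.07 and the mitochondrial folate enzyme Mthfd2 by 2.14 ± 0.10. Several of these are textbook targets of Atf4, of which the mRNA had -0.04 ± 0.10 and did not pass, and Trib3, another such target, fell by 1.48. The activity of Atf4 was not measured in these libraries, and its part in the changes was not tested. The large neutral amino acid transporter Slc7a5 rose by 1.89 ± 0.15, while the glutamine transporter Slc1a5 had 0.38 ± 0.36.

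The amino acid response letters TGATGNAAN, on either strand, stood in promoters of 5 of 14 synthetase genes matched to RefSeq (35.7%), and of 6 of 30 genes of amino acid and one-carbon metabolism (20.0%), against 252 of the 9121 tested genes matched (2.76%). Of the latter 6, 5 were among the 22 that rose (22.7%) and 1 was among the 3 that fell (33.3%). Stretches of 90 bases before the start are shown for 4 genes that rose, in which capitals mark the match, since they carry the clearest shared letters among the growth genes.
Chac1 (chr2:119351022-119351111, + strand): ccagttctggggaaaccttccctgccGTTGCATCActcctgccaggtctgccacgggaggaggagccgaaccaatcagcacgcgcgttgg
Asns (chr6:7693210-7693299, - strand): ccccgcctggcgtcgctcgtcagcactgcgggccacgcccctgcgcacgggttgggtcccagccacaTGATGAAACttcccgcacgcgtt
Pycr1 (chr11:120643789-120643878, - strand): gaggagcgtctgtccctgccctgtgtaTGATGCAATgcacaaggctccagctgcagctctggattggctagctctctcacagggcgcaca
Aars (chr8:111033712-111033801, + strand): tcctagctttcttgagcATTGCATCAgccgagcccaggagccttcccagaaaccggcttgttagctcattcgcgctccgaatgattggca
A match is a description of the window, and whether Atf4 or another factor was bound there was not measured in these libraries.

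Nucleotide and lipid synthesis rose in the same libraries. Of 36 genes of nucleotide and polyamine synthesis, 26 rose and 3 fell, with a median of 1.02. Rrm2 and Rrm1, the subunits of ribonucleotide reductase, rose by 2.92 ± 0.11 and 2.32 ± 0.12, while the p53-inducible subunit Rrm2b fell by 1.04, and Cad, which starts pyrimidine synthesis, rose by 1.82 ± 0.11. Of 40 genes of cholesterol and fatty acid synthesis, 26 rose and 5 fell, with a median of 0.97. Idi1 rose by 2.68 ± 0.11 and Sqle, squalene epoxidase, by 2.14 ± 0.14. The members that fell included the cholesterol exporters Abca1 and Abcg1, with -2.51 ± 0.23 and -0.69 ± 0.07, and the ubiquitin ligase Mylip, with -2.67 ± 0.37.

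Genes of glycolysis and nuclear genes of mitochondrial respiration both rose on balance. Of 36 genes of glycolysis and glucose and lactate transport, 18 rose and 4 fell, and the list took 0.684% of a resting and 1.19% of an activated library. Hk2, the inducible hexokinase, stood at 4.11, 13.1 and 8.78 normalized counts at rest and 222, 211 and 246 after activation, and Gapdh at 3914, 3895 and 3828 and 23384, 23983 and 24755. The groups were apart for both. The glucose transporter Slc2a1 had 0.24 ± 0.12 and did not pass, and its relative Slc2a3 fell by 1.62. Pdk1, a kinase that holds pyruvate back from mitochondria, fell by 2.22, from 4679.6 ± 677 to 1021 ± 264. Subunits of oxidative phosphorylation encoded in the nucleus rose in 62 of 78 cases and fell in 1, with a median of 0.91 and a range of rises that was narrow, led by Ndufc2, with 1.83 ± 0.15, Cycs, cytochrome c, with 1.56 ± 0.10, and Cox7b, with 1.48 ± 0.08, the exception being Cox7a2l, a supercomplex factor, which fell by 1.53. None of the 13 transcripts encoded in mitochondria passed the thresholds in either direction by limma, nor by edgeR or DESeq2, although 4 were lower at an unadjusted p below 0.05 in limma. Their median was -0.30, and mitochondrial transcripts took 3.95 to 4.22% of the resting and 3.07 to 3.32% of the activated libraries. Mitochondrial ribosomal proteins rose in 51 of 78 cases and fell in none by limma, edgeR or DESeq2, with 1 lower at an unadjusted p below 0.05, at a median of 0.68, with Mrps6 at 2.09 ± 0.10 and Mrpl45 at 1.94 ± 0.08. In the tricarboxylic acid cycle and mitochondrial import, 30 of 57 rose, led by the chaperonins Hspe1 and Hspd1, with 1.86 ± 0.12 and 1.73 ± 0.09, and 1 fell, the factor of mitochondrial biogenesis Nrf1, with -0.91 ± 0.07.

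Protein turnover and folding rose, whereas lysosomal genes did not. Of 47 proteasome subunits and assembly factors, 40 rose and 0 fell, also at an unadjusted p below 0.05 and by edgeR and DESeq2, with a median of 0.83, and their share of a library went from 0.696 ± 0.0174% to 1.42 ± 0.0138%. Besides the interferon-induced subunits, constitutive members such as Psmd14, with 1.79 ± 0.13, Pomp, with 1.68 ± 0.08, and Psma5, with 1.54 ± 0.11, took part. Cytosolic chaperones rose in 18 of 35 cases, with Hsp90ab1 at 11088, 11341 and 11177 normalized counts at rest and 51104, 50222 and 53009 after activation, and fell in 3, among them the heat shock factor Hsf1, with -0.80 ± 0.14. In the endoplasmic reticulum 22 of 42 rose, led by Xbp1, a factor of the unfolded protein response, with 2.83 ± 0.66, while Ern1, the sensor that splices its mRNA, had -0.99 ± 0.19 and Dnajb9 -1.21 ± 0.23. Of 57 genes of lysosome and autophagy, 8 rose and 19 fell, with a median of -0.24. Ctsd and Ctsl, lysosomal proteases, had -1.54 ± 0.15 and -2.32 ± 0.13, the lysosomal acid lipase Lipa -2.34 ± 0.11 and the autophagy kinase Ulk2 -1.69 ± 0.19, while the proton pump subunit Atp6v0a1 rose by 2.37 ± 0.24.

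Most listed genes of DNA replication and mitosis rose. Of 30 cyclins, kinases and inhibitors of G1, 14 rose and 6 fell. Cdk6 stood at 267, 229 and 250.1 normalized counts in resting and 5023, 4440.1 and 4943 in activated libraries, and Ccnd2, its cyclin partner, at 2533, 2514 and 2578 and 14377, 14273 and 15143. E2f1 rose by 2.75 ± 0.30, E2f8, a repressor of the family, by 3.57 ± 0.51, and the inhibitor Cdkn1a, p21, by 3.94 ± 0.13, whereas the retinoblastoma gene Rb1 had -1.16 ± 0.19 and the inhibitor Cdkn2d -0.87 ± 0.10. Of 58 genes of DNA replication, 51 rose and 1 fell, with a median of 1.84, and their share of a library went from 0.264 ± 0.00187% to 0.723 ± 0.0136%. Uhrf1, which maintains DNA methylation, stood at 21.6, 33.8 and 33.4 and 1652, 1447 and 1695, Cdc6, a licensing factor, at 7.20, 9.38 and 5.27 and 423, 409 and 438, and Mcm5, a subunit of the helicase, at 428, 456 and 467 and 4916, 4782 and 5088. For all 3 the activated libraries lay above the resting ones, and the member that fell was Rpa1, with -0.67 ± 0.10. The E2F letters TTTGGCGC stood in promoters of 7 of 50 genes of this list that were matched, which is 14.0% against 1.13% of the 9121 tested genes. By call, these were 6 of the 43 that rose (14.0%), 1 of the 6 not called (16.7%) and 0 of the 1 that fell. Of 66 genes of mitosis and the kinetochore, 53 rose and 5 fell, with a median of 1.90, whereas their summed share of a library was 0.164 ± 0.00729% at rest and 0.162 ± 0.00735% after activation. Top2a stood at 33.9, 42.2 and 43.0 and 879, 901 and 938, Aurkb at 4.11, 5.63 and 7.02 and 159.8, 155 and 176, and Mki67, which encodes Ki-67, at 44.2, 28.1 and 36.9 and 93.4, 81.1 and 106. The activated libraries were the higher ones for all 3. The members that fell were Cdc25b, a phosphatase at the entry into mitosis, with -3.15 ± 0.12, the kinesins Kif23 and Kif22, with -2.59 ± 0.20 and -2.11 ± 0.17, the centromeric histone Cenpa, with -1.31 ± 0.12, and Pttg1, securin, with -0.88 ± 0.11.

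**Figure D4:**
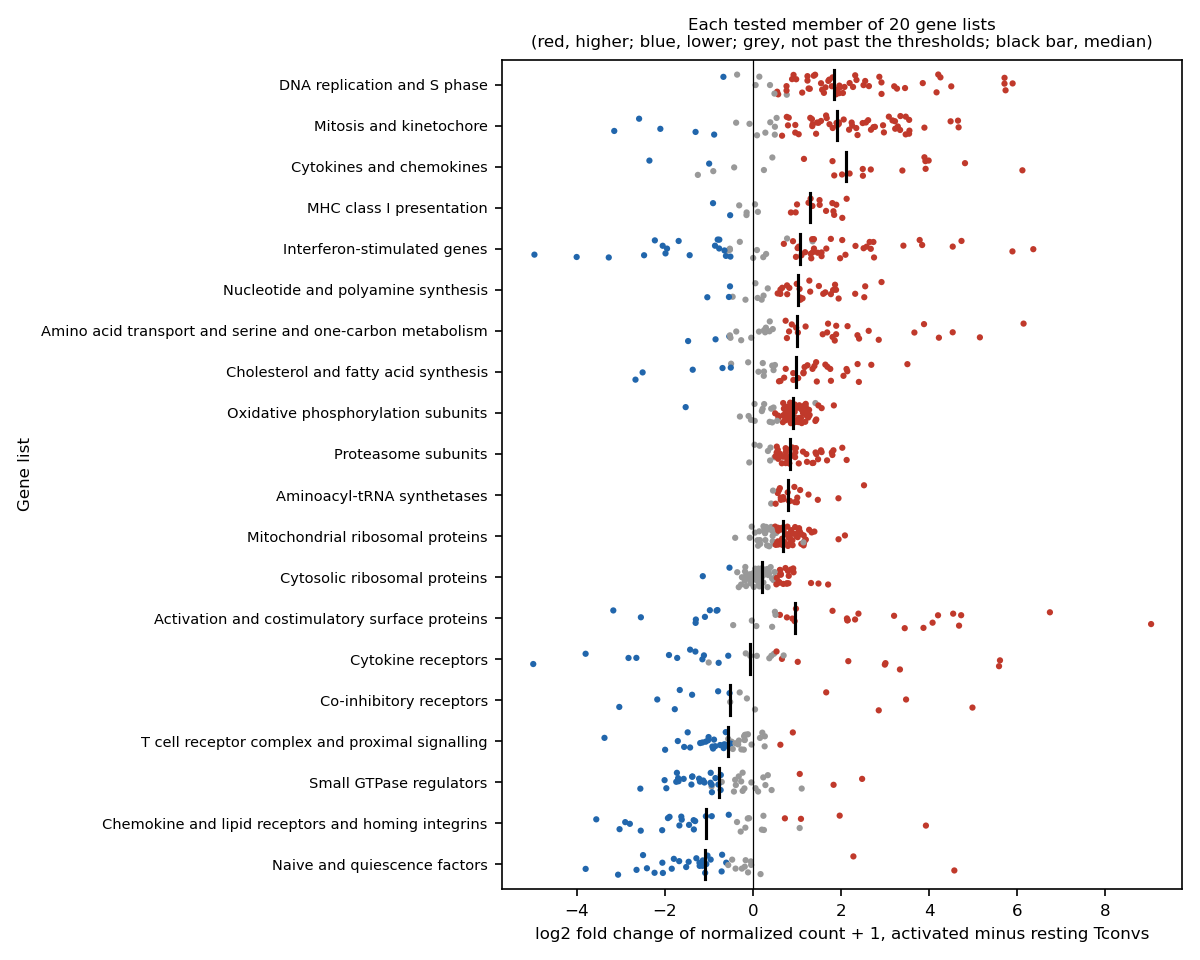
Log2 fold change on activation of every tested member of 20 gene lists in Tconvs, where red points rose, blue points fell, grey points did not pass the thresholds and black bars are medians. The medians run from 2.11 for cytokines and 1.90 for mitosis to -1.09 for naive and quiescence factors, and the members of the oxidative phosphorylation and proteasome lists lie in narrow bands to the right of 0.

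Genes of cell death moved both ways, with 12 of 31 higher and 5 lower. The survival proteins Bcl2l1 and Bcl2 rose by 3.09 ± 0.09 and 1.75 ± 0.10, and so did the pore former Bak1, by 1.83 ± 0.19, whereas the BH3-only proteins Bmf and Bbc3 had -2.07 ± 0.43 and -1.35 ± 0.24, and Bcl2l11, which encodes BIM, had -0.24 ± 0.11.

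In the nucleus, chromatin genes fell more often than they rose, while genes of RNA splicing and nuclear transport rose. Of 74 modifiers of histones and DNA, 31 fell and 14 rose, with a median of -0.30. Ezh2, the methyltransferase of Polycomb, stood at 229, 271 and 231 normalized counts at rest and 1182, 982 and 1152 after activation, and its paralog Ezh1, at 1469, 1468 and 1447 and 615, 608 and 601, went the other way. Dnmt1, the maintenance DNA methyltransferase, rose by 1.41 ± 0.10, and the demethylases Kdm6b and Kdm7a had -2.81 ± 0.16 and -1.66 ± 0.13. Chromatin remodellers fell in 18 of 55 cases and rose in 10, with -1.18 ± 0.13 for Smarca2 and 0.91 ± 0.10 for Smarca4, the alternative ATPase of the same complex, and the majority turned when a log2 fold change above 1 was required, with 4 higher and 3 lower. Of 326 genes with a Zfp name, which encode zinc finger proteins of mostly unknown function, 115 fell and 24 rose, with a median of -0.39, so that 35.3% of them fell against 25.7% of all genes. Splicing factors rose in 41 of 77 cases and fell in 7, and the falls included the kinases Clk1 and Clk4, with -1.42 ± 0.13 and -1.29 ± 0.10, and the SR protein Srsf2, with -1.08 ± 0.09, whereas Hnrnpa1 rose by 2.40 ± 0.08 and Srsf3 by 1.61 ± 0.12. In nuclear transport 23 of 47 rose, with Ran at 1.93 ± 0.09, and Nup153 and Kpna4 fell, with -1.22 ± 0.12 and -0.95 ± 0.10.

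Cytoskeletal genes changed in both directions, with 18 of 56 higher and 10 lower. Actb, beta actin, stood at 99744, 101836 and 99663 normalized counts in resting and 163916, 170103 and 174325 in activated libraries, its share of a library going from 0.960% to 1.54%, the largest gain of any gene. Lmnb2, Anxa2 and Lgals3 rose by 2.69 ± 0.30, 2.21 ± 0.14 and 2.01 ± 0.15, and Tubb2a, S100a4 and Anxa1 had -2.61 ± 0.07, -2.40 ± 0.17 and -2.30 ± 0.55. After Actb, the next 3 gains in share were those of Gbp2, from 0.00612% to 0.479%, Hsp90ab1, from 0.107% to 0.467%, and Hspa8, from 0.251% to 0.493%. The largest losses were those of mt-Co1, from 1.17% to 0.833%, and mt-Atp6, from 0.815% to 0.589%, neither past the thresholds, then Selenop, a selenium carrier, from 0.247% to 0.0220%, Il7r, from 0.198% to 0.00590%, and Rps27, from 0.293% to 0.127%. Among the 8 GIMAP GTPases of lymphocyte survival, 4 fell, led by Gimap4, with -1.68 ± 0.18, and the very large interferon-inducible GTPase Gvin1, which the list also held, rose by 1.61 ± 0.15.

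**Figure D5:**
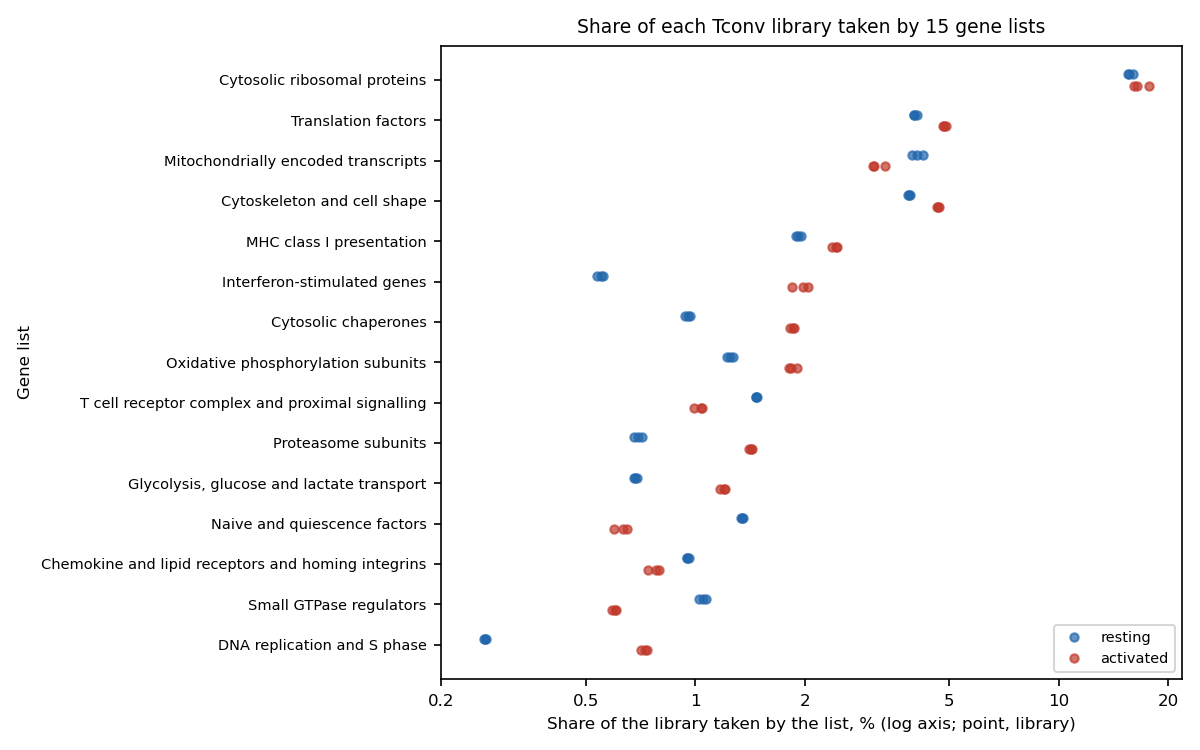
Share of each of the 6 Tconv libraries taken by 15 gene lists, in percent on a log axis, where blue points are resting and red points activated libraries. Interferon-stimulated genes go from 0.548% to 1.96%, proteasome subunits from 0.696% to 1.42% and DNA replication from 0.264% to 0.723%, whereas naive and quiescence factors go from 1.35% to 0.627% and cytosolic ribosomal proteins from 15.7% to 16.7%.

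Several of these changes differed from those of thymus-derived Tregs (tTregs), of which 3 resting and 3 activated libraries were sequenced from the same kind of mice. Labels call these cells nTreg, their libraries were shallower, with 5256800 to 9893053 reads on genes, and 11.9% of all genes rose and 10.0% fell in them. The difference between the responses, tested as an interaction in the same fit, passed the thresholds in 34.7% of all genes, 17.0% with a more positive and 17.7% with a more negative response in Tconvs. Markers of Tregs aside, the lists with the largest shares of more positive responses in Tconvs were those of tRNA synthetases, DNA replication, ribosome biogenesis, interferon and cytokines. Among interferon-stimulated genes 41 of 62 had a more positive response in Tconvs and 8 a more negative one, and in tTregs 5 rose and 28 fell. Gbp2 had a log2 fold change of 1.00 in tTregs, a difference of 5.37 ± 0.17, and Iigp1, with -0.66, a difference of 5.40 ± 0.21. Il2ra stood at 6752 ± 494 normalized counts in resting tTregs and had a log2 fold change of -0.06 there, a difference of 6.80 ± 0.14, and Il12rb2 had -1.16, a difference of 6.77 ± 0.45. Among tRNA synthetases none rose or fell in tTregs by limma, where 6 were higher and 1 lower at an unadjusted p below 0.05, and 17 of 22 had a more positive response in Tconvs, and for ribosome biogenesis these were 49 of 73, for DNA replication 42 of 58, for cytokines 14 of 22 and for proteasome subunits 24 of 47. Naive and quiescence factors had a more negative response in Tconvs in 19 of 37 cases, and TCR signalling genes in 16 of 43. Of mitosis genes, 52 of 66 rose in tTregs, and 16 had a more positive and 8 a more negative response in Tconvs. Of cytosolic ribosomal proteins, 36 of 80 rose in tTregs, and 12 had a more negative and 3 a more positive response in Tconvs, both below the shares of all genes. Zinc finger genes with Zfp names fell in both, in 115 and 106 of 326 cases. Depth and mitochondrial share differed between the cell types along with these values, and their part in the difference was not tested.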

How the data were processed

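RNA-seq libraries were made by a modified SMART-seq2 protocol on polyA RNA, which amplifies cDNA and marks neither strand nor molecule. Per the submitters' processing notes and the study's methods, reads were trimmed with cutadapt 1.18, aligned with STAR 2.5.3 to mm10 and counted per gene with RSEM 1.3.0 on GENCODE annotation. The authors deposited a signal in normalized counts, in which each library of the 24 was scaled by its own size factor, as DESeq2 1.26 makes. Every column carried the title of its sample, and 0 columns were left without one. Division by the smallest value of a Tconv library gave whole numbers in 100% of cases, within 0.001, and the recovered reads gave depth, floors and the edgeR and DESeq2 alternatives.

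Genes that reached 10 normalized counts in 3 or more of the 15 libraries were tested, on log2(normalized count + 1), with limma 3.58.1 (lmFit and eBayes with trend, R 4.3.3), since a log-scale test fits normalized values, and adjusted p-values are by Benjamini-Hochberg over all 11495 genes. The fit held resting and activated Tconvs and tTregs and resting iTregs without covariates. The scripts were tested on simulated data. Alternatives were other scalings, pseudocounts of 0.1 and 5, filters, the 6 Tconv libraries alone, a replicate block, each library left out, other thresholds, edgeR 4.0.16 and DESeq2 1.42.0. Replicates of a group differed by 3.01 to 9.35 times the variance of counting, and none was a copy of another.

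Gene lists were written from textbook knowledge, and members and lists were chosen with earlier results of these data known. Lists are described by counts and medians beside all genes, with no test over a list. Named were, over all genes, the 10 largest rises and 10 largest falls whose libraries do not overlap and that reach 100 normalized counts, in each list up to 4 of the largest rises and falls, members against the majority and the highest members, the 5 genes with the largest gain and loss in library share, and defining genes of textbooks, of which only some are printed. Positions and exon overlap came from GENCODE M21 of GRCm38, an older release than the study's, in which 77 of the 11495 genes were not found by name. Among the genes called, 421 share more than 20% of their exonic bases with other genes. Promoters came from RefSeq (GRCm38.p6), to which 9121 of the tested genes were matched by symbol. A few genes that these rules name are not reported here. Other samples of the series were not used here beyond the 15 libraries of the fit. Figures were drawn with Python 3.11.15 and matplotlib 3.10.9.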

Additional observations from a re-analysis of the deposited data

Results flagged for a closer look

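The response to activation differed between Tconvs and tTregs, by a test of the difference itself, in 3991 genes. In 147 of them, 1.28% of all genes tested, the gene rose in one cell type and fell in the other. Among the named genes with such opposite directions, Il12rb2, a chain of the IL-12 receptor, differed most, with 5.61 in Tconvs and -1.16 in tTregs on the log2 scale, a difference of 6.77 ± 0.45. The interferon-induced GTPase Iigp1 had 4.73 and -0.66, a difference of 5.40 ± 0.21, Ifit1 had 2.73 and -0.99, a difference of 3.72 ± 0.30, and the large GTPase Gvin1 had 1.61 and -0.96, a difference of 2.56 ± 0.21. Rgs1, the brake on chemokine receptors, had 4.54 and -0.56, a difference of 5.11 ± 0.13, whereas the receptor Gpr183 had -3.56 and 0.53, a difference of -4.09 ± 0.18. The kinesins Kif23 and Kif22 fell in Tconvs, with -2.59 and -2.11, and rose in tTregs, with 0.60 and 0.87, which are differences of -3.19 ± 0.28 and -2.98 ± 0.24. The potassium channel Kcna3 had 0.54 and -0.65, a difference of 1.19 ± 0.28. Its call in Tconvs was lost when most single libraries were left out, and with quantile or equal-total scaling, as given above. Activated tTregs had no more than 9893053 reads in a library, and what depth contributed to these differences was not tested.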

How the results depend on the processing

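Scaling, pseudocount, filter, choice of libraries and test tool left the counts within 1.5 times those reported, and 43.8 to 52.4% of the calls were rises under any of them. With a log2 fold change above 1, 3047 genes changed, 1555 higher and 1492 lower. Leaving out each library in turn gave 5450 to 5595 changed genes, 2683 to 2742 higher and 2745 to 2894 lower, and leaving out each replicate number gave 3033 to 3411 genes that differed between Tconvs and tTregs. On reads recovered from the table, edgeR called 5668 genes and DESeq2 5597. Scaling each library to the same total moved the median of all genes from -0.04 to -0.11 and gave 2555 rises and 3274 falls. Replicate numbers are shared by the groups, but deviations from the group means of equally numbered libraries correlated by only 0.076, 0.124 and 0.184, so that they were not taken as pairs, although every library correlated best with its own number, and with the replicate number as a block 5783 genes changed in place of 5750 in the fit of the 6 libraries, and 3667 differed from tTregs. The majority of a gene list turned for helper lineage factors without resting replicate 3, and for chromatin remodelling and the MYC network with a log2 fold change above 1. Of the 275 named genes that had been called, 3 lost the call under some alternative other than the larger fold change, Egr1, Ifng and Kcna3, and none changed direction. Depth limited genes near the floor, such as Il2.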

Other observations

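Outside the gene lists, several of the largest changes were in genes with other functions. Pros1, protein S, which limits coagulation and is a ligand of TAM receptors, stood at 44.2, 41.3 and 48.3 normalized counts in resting and 6245, 6238 and 6257 in activated Tconvs. Anxa3, an annexin, was at 0 in every resting library and stood at 133, 160.4 and 156 after activation, at least 52.6-fold above the floor of 3 reads. Pla2g4f, a cytosolic phospholipase A2, stood at 0, 4.69 and 2.63 and 243, 262 and 315. Dtl, the substrate adaptor of the ubiquitin ligase that removes licensing factors in S phase, stood at 10.3, 7.50 and 1.76 and 878, 926 and 905. Their groups did not overlap, which the rule that named them required. In tTregs the log2 fold change of Dtl was 3.31 and that of Pros1 0.85, against 7.14 ± 0.35 and 7.10 ± 0.08 in Tconvs.

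Among the falls, St8sia6, a sialyltransferase, stood at 4058, 3815 and 4143 normalized counts at rest and 148, 127 and 153 after activation, and H2-Ob, which modulates peptide loading on MHC class II, at 1695, 1671 and 1665 and 43.1, 37.9 and 54.5. Patl2, an RNA-binding protein, stood at 267, 271 and 294 and 3.59, 2.59 and 0, so that after activation it lay near the floor of 3 reads. Clstn3, Cnga1, a cyclic nucleotide-gated channel, and Slc6a19, a neutral amino acid transporter, had log2 fold changes of -5.93 ± 0.56, -5.31 ± 0.49 and -4.91 ± 0.50. Rapgef4, a cyclic AMP sensor that activates Rap, fell by 4.72 and Cyp2s1 fell by 5.22. Under the floor in all 3 resting libraries and at 100 normalized counts or more after activation were 5 genes, Atf3, Anxa3, Lad1, Clspn and 6430571L13Rik, whereas 0 genes went the other way by the same limits.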
